A study of Homo sapiens with 4 samples.

Results

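The 9 genes described here carry peptides to the cell surface on HLA class I molecules. They are B2M, HLA-B, HLA-C, HLA-E, HLA-F, TAP1, TAP2, TAPBP and NLRC5, and they were found by name among the 64252 gene identifiers of the count table, each as its identifier on the primary chromosomes. Their RNA was measured in 4 libraries of cells labelled NB4, a line of promyelocytic leukemia with the PML-RARa fusion. In 2 libraries the cells had received 8 μM dBET1 for 24 h, and in 2 libraries they had received the same volume of its solvent, DMSO. dBET1 is a proteolysis-targeting chimera (PROTAC) that brings BET bromodomain proteins to the E3 ligase adaptor CRBN. All libraries came from 1 cell line, and where nothing says that the libraries of a group were separate cultures, the p-values measure only the spread between these libraries.

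Class I molecules show fragments of a cell's own proteins to CD8 T cells and to natural killer cells. A heavy chain (such as the products of HLA-B, HLA-C, HLA-E, HLA-F and HLA-G) pairs with beta-2-microglobulin, the product of B2M. Peptides cut by the proteasome are pumped into the endoplasmic reticulum by TAP1 and TAP2, and tapasin, the product of TAPBP, holds the empty heavy chain beside this pump until a peptide fits. NLRC5 is the transactivator that drives class I genes, and interferon-gamma is known to induce it together with the other members. Nearly all nucleated cells carry class I molecules, and their loss is a known way for leukemia cells to escape T cells.

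The libraries held 28019956 to 34685645 counts, and 17971 identifiers passed the count filter of edgeR. The labelled cell type was checked against marker genes. Of 10 granulocytic genes, ELANE and CTSG had 0 counts in every library, and MPO had 0 counts in both DMSO libraries and 22 and 10 with dBET1. CD33, a myeloid surface marker, was at 9.90 to 11.9 CPM (the count rate of a gene after scaling of each library with its TMM factor), and ITGAM, an integrin of mature myeloid cells, had 22 and 9 counts with DMSO and 170 and 152 with dBET1. Of the 7 granulocytic genes that were tested, 2 (MPO and ITGAM) were higher after dBET1 at an adjusted p under 0.05, and none was lower. Of all tested genes, 28.0% were higher. MPO and ITGAM passed the count filter through their dBET1 libraries, where they were high. With at least 10 counts asked in every sample, 4 granulocytic genes were tested, and 0 were higher and 0 lower. Under that filter 4320 of 15250 tested genes were higher and 4424 lower. The summed level of the list was 14.6 and 15.7 CPM with DMSO and 21.5 and 18.8 CPM with dBET1. Of 11 erythroid genes none was at 0, their sum was 7616 and 8486 CPM with DMSO and 4477 and 4457 CPM with dBET1, and 10 of them were lower after dBET1 at an adjusted p under 0.05, where 27.6% of all tested genes were lower. The erythroid sum was thus far above the granulocytic sum in every library. With DMSO, HBG2 was at a mean of 2724 CPM, KLF1 at 230 CPM and GATA1 at 221 CPM. Of the granule genes, ELANE and CTSG were at 0, and AZU1 had 14 to 23 counts. These markers do not bear out the label of a promyelocytic line, and the line is named below as the libraries are labelled. Of 10 lymphoid genes, 4 had at most 3 counts in every library, and the list summed to 30.5 and 35.0 CPM with DMSO and to 14.6 and 15.1 CPM with dBET1, most of it from CD3D, the gene of a T cell receptor subunit. The parts of these differences in the results below were not tested.

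Class I genes are known for shared promoter elements, and 4 promoters are printed to set the highest member beside a heavy chain gene listed at or near 0 and the pair of transporter genes. RefSeq promoters (GRCh38.p14) were matched for 7 of the 9 members; HLA-E and NLRC5 had no entry. Each line holds the 250 bases before the RefSeq start, 5′ to 3′ on the strand of the gene, and capitals mark every match to a searched motif on either strand. B2M lies at chr15:44711267-44711516 (forward strand), HLA-B at chr6:31357180-31357429 (reverse strand), TAP1 at chr6:32853705-32853954 (reverse strand) and TAP2 at chr6:32838740-32838989 (reverse strand).
B2M: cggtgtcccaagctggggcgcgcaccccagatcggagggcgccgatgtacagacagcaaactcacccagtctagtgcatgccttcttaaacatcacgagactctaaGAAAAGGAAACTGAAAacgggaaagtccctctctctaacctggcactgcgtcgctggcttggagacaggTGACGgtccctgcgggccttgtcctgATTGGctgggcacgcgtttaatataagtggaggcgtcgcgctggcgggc
HLA-B: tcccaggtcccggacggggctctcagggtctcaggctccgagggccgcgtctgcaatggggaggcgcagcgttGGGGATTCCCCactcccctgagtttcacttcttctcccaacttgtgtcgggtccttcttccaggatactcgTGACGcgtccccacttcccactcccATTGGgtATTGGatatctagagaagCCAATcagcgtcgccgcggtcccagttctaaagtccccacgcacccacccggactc
TAP1: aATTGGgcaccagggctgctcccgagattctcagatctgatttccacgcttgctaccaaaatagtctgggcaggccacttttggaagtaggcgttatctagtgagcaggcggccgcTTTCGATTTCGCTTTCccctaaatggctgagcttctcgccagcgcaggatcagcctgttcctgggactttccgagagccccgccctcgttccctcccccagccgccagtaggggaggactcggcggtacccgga
TAP2: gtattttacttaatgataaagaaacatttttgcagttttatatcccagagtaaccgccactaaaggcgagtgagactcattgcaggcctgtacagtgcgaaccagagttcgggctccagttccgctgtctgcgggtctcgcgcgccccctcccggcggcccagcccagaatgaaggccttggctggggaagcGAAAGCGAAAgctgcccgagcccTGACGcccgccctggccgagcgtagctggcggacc

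The motifs were the core of an interferon response element (GAAA, any 2 bases, GAAA), CCAAT (the Y box bound by NFY), TGACG (part of a cyclic AMP response element) and an NF-kappaB site (GGGGA, any base, TCCC). They were searched on both strands of 300 bases, of which the last 50 follow the start. The letters searched for the interferon element core were in the promoters of 5 of 7 members (B2M, HLA-F, TAP1, TAP2 and TAPBP), against 3.57% of 35116 promoters. In B2M a pair of overlapping matches began 144 and 138 bases before the start, in TAP1 at 134 and 128 bases and in TAPBP at 20 and 14 bases, while TAP2 had 1 match at 58 bases. CCAAT was in 5 of 7 members (34.6% of all promoters) and TGACG in 4 of 7 (24.6%). HLA-B alone of the 7 matched the letters searched for NF-kappaB, as 2 overlapping matches on opposite strands, against 0.424% of all promoters. Only these exact letters were searched, so a member without a match may hold another form of a motif. TAP1 has a second promoter entry, in which none of the motifs was found. These matches describe letters in a window and not the binding of a factor.

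The members spanned the whole range from absent to abundant, and B2M held nearly all of their reads. With DMSO, B2M (chromosome 15 of hg38, 44711358 to 44718851, forward strand) reached 186 and 180 CPM, and the other members reached 13.2 CPM at most. Levels were compared between genes per kilobase of the canonical transcript. On this scale B2M was at 194 ± 4.60 CPM per kb with DMSO (SD, n = 2), followed by TAP2 at 2.07 ± 0.380, HLA-E at 1.69 ± 0.526, TAPBP at 1.67 ± 0.621 and TAP1 at 0.238 ± 0.0182. TAP2, HLA-E and TAPBP did not differ beyond their spread. After dBET1, B2M was at 235 ± 2.65 CPM per kb (SD, n = 2), HLA-E at 4.64 ± 0.542, TAPBP at 2.53 ± 1.04, TAP2 at 1.40 ± 0.145 and TAP1 at 0.364 ± 0.239. Among the primary identifiers, which may hold only part of a gene's reads, HLA-E stood second in the order after dBET1. NLRC5 and the heavy chain genes HLA-B, HLA-C and HLA-F stood at or near 0 in both groups.

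**Figure D1:**
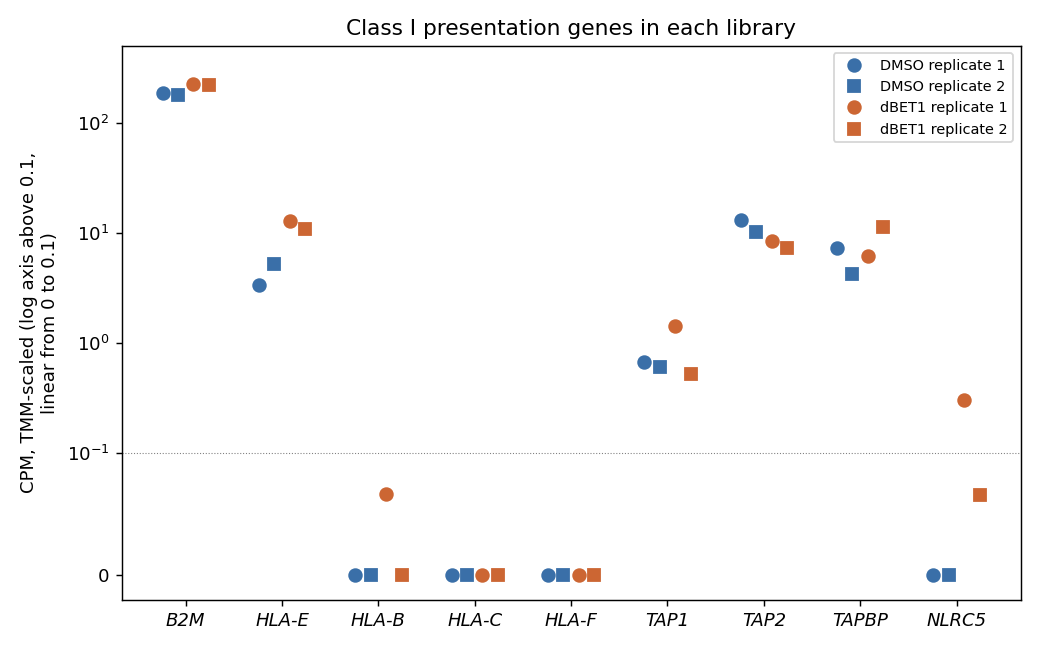
Level of each class I presentation gene in the 4 libraries, in CPM scaled by TMM factors. The vertical axis is logarithmic above 0.1 CPM and linear from 0 to 0.1 CPM, and each point is 1 library. B2M lay between 180 and 223 CPM, HLA-C and HLA-F were at 0 in every library, and the dBET1 points of HLA-E, at 10.8 and 12.8 CPM, lay above its DMSO points.

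Only part of the set could be tested for a change. Of the 9 members, 5 passed the count filter (B2M, HLA-E, TAP1, TAP2 and TAPBP), and 4 did not (HLA-B, HLA-C, HLA-F and NLRC5). By the quasi-likelihood test of edgeR, with p-values adjusted (Benjamini-Hochberg) over all tested genes, 2 members were higher after dBET1, HLA-E and B2M, where 28.0% of all tested genes were higher. TAP2 was the 1 member that was lower, where 27.6% of all tested genes were lower, and TAP1 and TAPBP did not pass the test. With an absolute log2 fold change above 1 asked in addition, HLA-E was the 1 member called higher (16.9% of all tested genes) and 0 members were called lower (8.54%). The median log2 fold change of the 5 tested members was 0.60, and that of all tested genes was 0.048. With 5 members tested, 2 higher and 1 lower are close to the background shares, so the results below are those of single genes. In bulk RNA, fewer cells that express a gene and less of its RNA per cell cannot be told apart.

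HLA-E (ENSG00000204592, chromosome 6, 30489509 to 30494194, forward strand) encodes a heavy chain that presents leader peptides of other class I molecules and is the ligand of the inhibitory natural killer receptor CD94/NKG2A. Its counts were 110 and 148 in DMSO-treated cells against 384 and 331 in dBET1-treated cells, or 3.37 and 5.27 CPM against 12.8 and 10.8 CPM. Both dBET1 libraries lay above both DMSO libraries, with more than the spread within either group between them. HLA-E rose from 4.32 ± 1.34 CPM to 11.8 ± 1.38 CPM (SD, both n = 2), a log2 fold change of 1.46 with a standard error of 0.246 (adjusted p = 0.00171, edgeR). It stayed past the test when any 1 library was left out, at log2 fold changes of 1.14 to 1.78.

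B2M encodes the light chain that every class I heavy chain needs for transport to the surface. Its counts were 6077 and 5061 in DMSO-treated cells against 6700 and 6707 in dBET1-treated cells, which is 186 and 180 CPM against 223 and 220 CPM. The groups did not overlap, and the libraries of each group lay close together. B2M rose by a ratio of 1.21, a log2 fold change of 0.27 with a standard error of 0.0700 (adjusted p = 0.0118, edgeR). The call was lost without dBET1 replicate 1 (0.26, adjusted p = 0.164) and without dBET1 replicate 2 (0.27, adjusted p = 0.145), and with no filter on low counts (0.22, adjusted p = 0.0566). With total counts only as the scale it was at 0.48 (adjusted p = 0.000948).

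TAP1 (chromosome 6, 32845209 to 32853816, reverse strand) and TAP2 (chromosome 6, 32821833 to 32838739, reverse strand) encode the subunits of the peptide transporter, which works as a pair of both. TAP2 had 431 and 286 counts in DMSO-treated and 255 and 224 in dBET1-treated cells, and its levels of 13.2 and 10.2 CPM lay above the 8.50 and 7.34 CPM of the dBET1 libraries. TAP2 fell by 0.56 on the log2 scale, with a standard error of 0.193 and an adjusted p of 0.0383 (edgeR). The groups of TAP2 did not overlap, but the call was lost without DMSO replicate 1 (-0.39, adjusted p = 0.129), without dBET1 replicate 1 (-0.68, adjusted p = 0.0674) and without dBET1 replicate 2 (-0.48, adjusted p = 0.178). With total counts only as the scale, TAP2 was at -0.36 (adjusted p = 0.159), and with DESeq2 at -0.60 (adjusted p = 0.0503).

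By the counts of the primary identifiers, which may hold only part of a gene's reads, TAP1 was much scarcer than its partner. It had 22 and 17 counts in DMSO-treated and 43 and 16 in dBET1-treated cells, or 0.674 and 0.605 CPM against 1.43 and 0.524 CPM. The lower dBET1 library lay below both DMSO libraries and the higher one above them, so the groups overlapped. Its log2 fold change of 0.61 had a standard error of 0.531 (adjusted p = 0.360, edgeR), and it turned to -0.29 without dBET1 replicate 1.

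TAPBP (chromosome 6, 33299694 to 33314284, reverse strand) differed as much within the groups as between them. It had 237 and 119 counts in DMSO-treated and 186 and 344 in dBET1-treated cells, or 7.26 and 4.23 CPM against 6.20 and 11.3 CPM, and the groups overlapped. Its log2 fold change was 0.60 with a standard error of 0.344 (adjusted p = 0.172, edgeR). It passed the test without DMSO replicate 1 (1.02, adjusted p = 0.0253) or without dBET1 replicate 1 (0.96, adjusted p = 0.0312), and it was at 0.090 to 0.24 when either of the other libraries was left out. The DMSO libraries of TAPBP were 0.78 apart on the log2 scale and its dBET1 libraries 0.86 apart. Over 5892 tested genes with a mean count of 100 to 1000, the median distance was 0.19 between the DMSO libraries and 0.13 between the dBET1 libraries, and 90% of these genes were within 0.53 and 0.42.

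**Figure D2:**
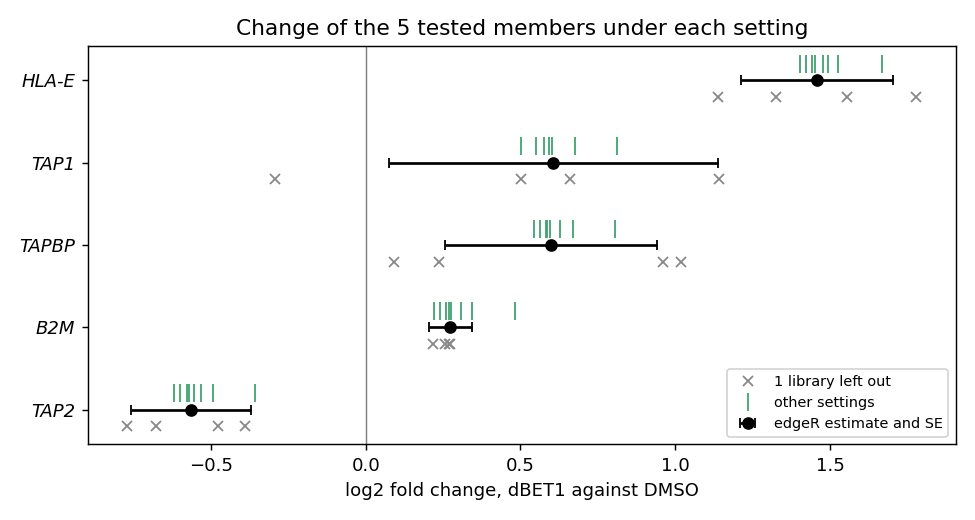
Log2 fold change of dBET1 against DMSO for the 5 members that passed the count filter. Black points with bars are the edgeR estimate and its standard error, grey crosses the fits that left out 1 library, and green marks the other settings. HLA-E stayed between 1.14 and 1.78, while the fits of TAP1 ran from -0.29 to 1.14.

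HLA-B and HLA-C encode classical heavy chains, which present peptides to CD8 T cells. HLA-B (ENSG00000234745, chromosome 6, 31353872 to 31367067, reverse strand) had 0 counts in both DMSO libraries and 2 and 0 counts with dBET1. HLA-C (ENSG00000204525, chromosome 6, 31268749 to 31272130, reverse strand) and HLA-F (ENSG00000204642, chromosome 6, 29722775 to 29738528, forward strand), a nonclassical heavy chain, had 0 counts in all 4 libraries. A count of 0 allows up to 3 counts, which is 0.0919 to 0.107 CPM in these libraries, for counting error only. HLA-G, another nonclassical heavy chain gene, also had 0 counts in every library. Of the 4 heavy chain genes among the members, HLA-E was therefore the 1 with a level that could be compared. Among 7 class I pseudogenes, 5 had at most 3 counts in every library, and their summed level was 0.306 and 0.285 CPM with DMSO and 0.300 and 0.360 CPM with dBET1. HLA-H, one of them, had 0 and 0 counts in DMSO-treated and 2 and 3 in dBET1-treated cells.

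NLRC5 (ENSG00000140853, chromosome 16, 56989485 to 57083531, forward strand) had 0 counts in both DMSO libraries and 9 and 2 counts in the dBET1 libraries. Both dBET1 values lay above the DMSO values, but the second was below the 3 counts that a 0 allows, so no fold is given. With no filter on low counts NLRC5 had an adjusted p of 0.138 (edgeR).

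The count table holds more identifiers than the primary chromosomes. Of its 64252 identifiers, 8147 had no entry in GENCODE release 44, 3483 of these had at least 1 count, and together they held 2.57% of all counts. The hg38 sequence carries the class I region on several alternate contigs, so windows of 100 bases from the exons of each member's canonical transcript were searched on the alternate contigs of its chromosome. All windows of HLA-E, TAP1 and TAPBP were found there unchanged, as were 97.8% of those of TAP2, 92.0% of HLA-F, 83.9% of B2M, 80.0% of HLA-C and 52.8% of HLA-B. None of the 280 windows of NLRC5 was found on the 6 alternate contigs of its chromosome. Matches lay on 6 contigs for HLA-E, 7 for TAP1 and TAP2, 4 for TAPBP and 1 for B2M. Reads from such windows fit equally well in several places, and how the authors' counting shared them is not given in the sources used here. The levels of these members are thus those of the primary identifier and may be part of the whole, and a 0 for HLA-B, HLA-C or HLA-F is a 0 of that identifier. Its part in the distance between the TAPBP libraries was not tested.

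**Figure D3:**
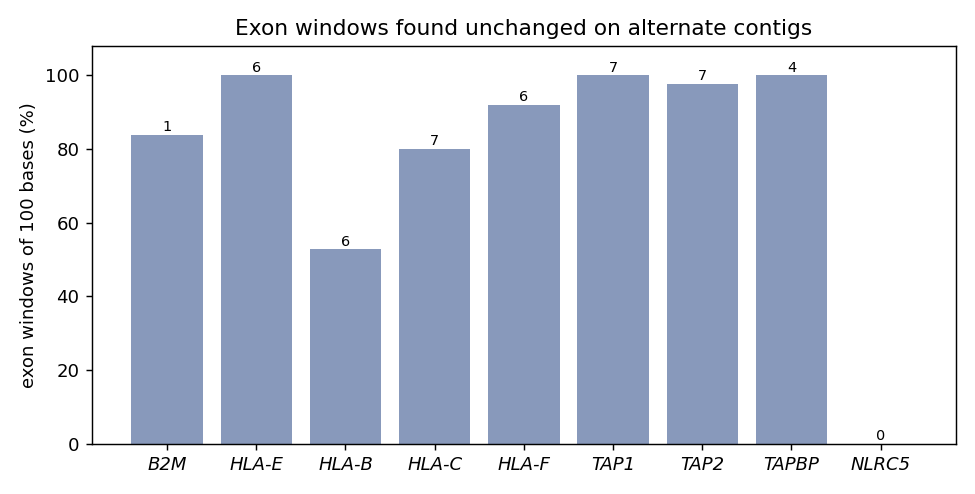
Share of exon windows of 100 bases, for each member's canonical transcript, that occur unchanged on an alternate hg38 contig of the same chromosome. The number above each bar is the number of alternate contigs with a match, and NLRC5 is the 1 member with none.

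The rest of the pathway was described with lists of 78 other genes of class I and class II presentation, of which 57 were tested. By the test of edgeR, 17 of these were higher and 17 were lower, against 28.0% and 27.6% of all tested genes, and their median log2 fold change was 0.048. With total counts only, a scale that moved the median of all tested genes from 0.048 to 0.26, 24 were higher and 14 were lower. On that scale 6703 of all 17971 tested genes were higher and 3573 were lower. The lists differed in direction among themselves, as the plot of the pathway lists shows.

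**Figure D4:**
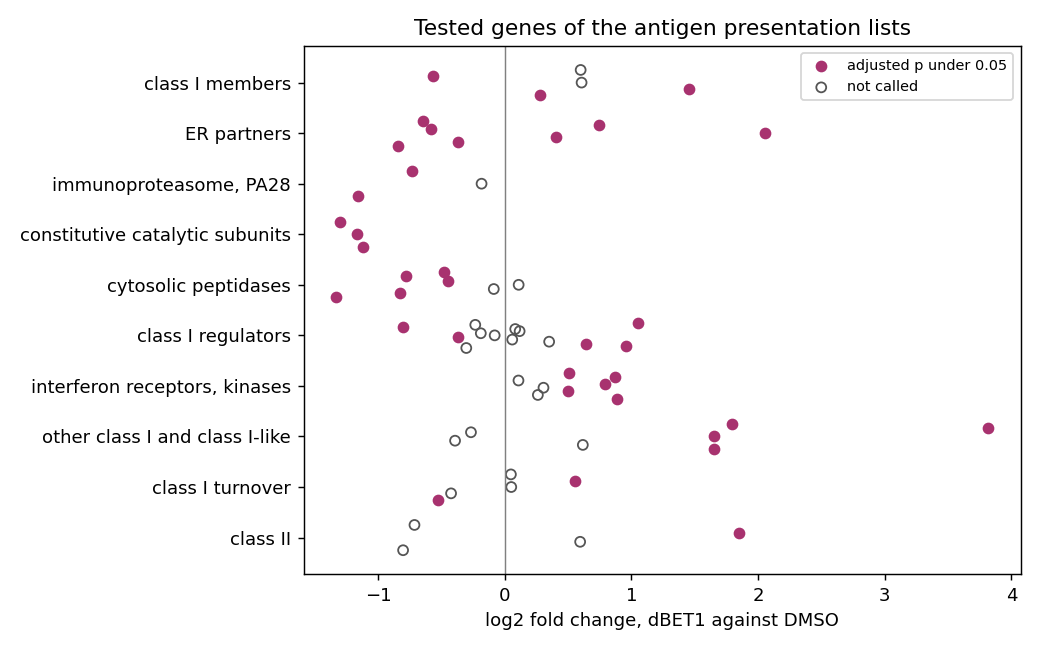
Log2 fold change of dBET1 against DMSO for every tested gene of the antigen presentation lists, 1 point per gene. Filled points had an adjusted p under 0.05 and open points did not. All 3 constitutive catalytic subunits lay below -1, and HLA-E, at 1.46, lay farthest to the right among the class I members.

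In the endoplasmic reticulum all 7 partner genes were called, 4 lower (27.6% of all tested genes) and 3 higher (28.0% of all tested genes), with a median of -0.37. Among those that fell were the abundant chaperone genes of the loading complex. CALR, the gene of calreticulin, fell from 876 ± 80.6 CPM to 487 ± 19.0 CPM (SD, both n = 2), a log2 fold change of -0.85, and PDIA3, the gene of the disulfide isomerase ERp57, had -0.58. CANX (calnexin) had -0.37, a call that was lost with total counts only, and UGGT1, which tags misfolded glycoproteins for another round of folding, had -0.65. Those that rose were peptide trimming and editing genes. ERAP2, an aminopeptidase, had 56 and 11 counts in DMSO-treated and 139 and 131 in dBET1-treated cells, with log2 fold change 2.05, standard error 0.527 and adjusted p = 0.0121 (edgeR). Its DMSO libraries lay far apart, and the log2 fold change was 3.47 without DMSO replicate 1 and 1.35 without DMSO replicate 2. Its partner ERAP1 had 0.41, and TAPBPL, which encodes the tapasin-like peptide editor TAPBPR, had 0.74. The calls of ERAP1, ERAP2 and TAPBPL were each lost under at least 1 setting, with no filter on low counts among them.

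Of the 6 catalytic subunits that cut class I peptides, 4 were tested and all 4 were lower, where 27.6% of all tested genes were. Of the inducible subunits, PSMB8 had 0 counts in every library and PSMB9, whose gene lies beside TAP1, had 16 and 5 counts in DMSO-treated and 5 and 6 in dBET1-treated cells, so neither was tested. PSMB10, the third inducible subunit, fell from 30.4 ± 3.49 CPM to 13.6 ± 2.52 CPM (SD, both n = 2), with log2 fold change -1.16, standard error 0.161 and adjusted p = 0.000660 (edgeR). Of the PA28 activator, PSME2 fell by 0.73 on the log2 scale, while PSME1 was at -0.18 and did not pass the test. The constitutive counterparts were all lower: PSMB5 had a log2 fold change of -1.12, PSMB6 of -1.17 and PSMB7 of -1.30. Of 7 cytosolic peptidases 5 were lower and none was higher (27.6% and 28.0% of all tested genes), and BLMH, the gene of bleomycin hydrolase, was the 1 past the limit of 1, at -1.33. With total counts only, 4 of the 7 were lower and 1 was higher, where 3573 of all 17971 tested genes were lower and 6703 higher.

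Of 13 genes of factors known to act on class I promoters, 3 were higher, 2 were lower and 8 did not pass the test, with a median log2 fold change of 0.059. These counts are close to or below the 28.0% and 27.6% of all tested genes that were higher and lower. STAT2, a signal carrier of type I interferon, rose from 32.4 ± 1.48 CPM to 67.0 ± 4.62 CPM (SD, both n = 2), with log2 fold change 1.05, standard error 0.0965 and adjusted p = 8.85e-05 (edgeR). IRF1 at 0.96 and IRF2 at 0.64 also rose and were named after their values were seen. Both encode factors that bind interferon response elements. Those that fell were RFXANK at -0.81 and NFYA at -0.37, subunits of the RFX and NFY complexes that hold NLRC5 at class I promoters. The call of NFYA was lost with total counts only, with other count filters and with 3 of the 4 libraries each left out in turn, and that of IRF2 was lost without dBET1 replicate 1. With total counts only, 5 of the 13 were higher and 1 was lower, where 6703 of all 17971 tested genes were higher and 3573 lower.

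Of 8 genes of interferon receptors, their kinases and the feedback inhibitor SOCS1, 5 were higher (28.0% of all tested genes) and none was lower (27.6%). Their median log2 fold change was 0.50. The 5 were IFNAR1 at 0.88, SOCS1 at 0.87, JAK1 at 0.79, TYK2 at 0.51 and IFNGR1 at 0.50, named after their values were seen. None passed the limit of 1, and IFNGR1 was not called with no filter on low counts. The call of IFNGR1 was lost without dBET1 replicate 1 and without dBET1 replicate 2.

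Beyond the heavy chains of the set, 16 other class I and class I-like genes were listed, of which 7 were tested. Of these, 4 were higher and none was lower, against 28.0% and 27.6% of all tested genes. ULBP1 and ULBP2, among the 4, passed the count filter only through their dBET1 libraries, where they were high. With at least 10 counts asked in every sample, 5 genes of the list were tested and 3 were higher, where 4320 of 15250 tested genes were. The median log2 fold change of the list then fell from 1.65 to 0.69. MR1, which presents vitamin B metabolites to MAIT cells, rose from 10.2 ± 2.49 CPM to 32.05 ± 0.806 CPM (SD, both n = 2), with log2 fold change 1.65, standard error 0.173 and adjusted p = 0.000161 (edgeR). HFE, a class I-like protein of iron control, rose from 2.77 ± 0.0124 CPM to 8.69 ± 0.338 CPM (SD, both n = 2), with log2 fold change 1.65, standard error 0.201 and adjusted p = 0.000341 (edgeR). MR1 and HFE products also bind beta-2-microglobulin. ULBP1 and ULBP2 encode stress ligands of the natural killer receptor NKG2D. ULBP1 had 3 and 0 counts in DMSO-treated and 22 and 23 in dBET1-treated cells (adjusted p = 0.00499, edgeR), and ULBP2 had 7 and 3 counts in DMSO-treated and 16 and 19 in dBET1-treated cells (adjusted p = 0.0287, edgeR). The call of ULBP2 was lost when any 1 library was left out. Of 6 genes of class I turnover 5 were tested, and 1 was higher and 1 lower, against 28.0% and 27.6% of all tested genes. TMEM127 was higher at 0.56. HM13, the signal peptide peptidase that frees the leader peptides HLA-E presents, was lower at -0.53.

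Class II genes serve CD4 T cells. Of 13, 9 had 0 counts in every library, among them HLA-DRA, HLA-DRB1 and HLA-DPA1. As for the heavy chains, this is a 0 of the primary identifier, and the alternate contigs were not searched for class II genes. The transactivator gene CIITA had 24 and 26 counts in DMSO-treated and 23 and 53 in dBET1-treated cells, and the invariant chain gene CD74 had 21 and 11 counts in DMSO-treated and 7 and 11 in dBET1-treated cells. Neither passed the test. HLA-DMA, of the peptide editor HLA-DM, was the 1 class II gene called of 4 tested, where 28.0% of all tested genes were higher. With at least 10 counts asked in every sample, 1 class II gene, CIITA, was tested and 0 were called. HLA-DMA had 2 and 5 counts in DMSO-treated and 14 and 12 in dBET1-treated cells (adjusted p = 0.0474, edgeR). HLA-DMA passed the count filter only through its dBET1 libraries, where it was high. Its call was lost when any 1 library was left out.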

How the data were processed

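RNA of cells labelled NB4 was sequenced after 24 h with 8 μM dBET1 (2 libraries) or DMSO (2 libraries). The authors aligned 150 bp paired-end reads to hg38 with HISAT2 2.2.0, estimated abundances with StringTie and deposited unnormalized whole-number counts for each gene. How abundances became counts is not given in the sources used here. The 4 columns were matched to samples by group, time and replicate number. Symbols and coordinates came from GENCODE release 44, which held 56105 of 64252 identifiers, and promoters from RefSeq.

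The analysis used edgeR 4.0.16 with limma 3.58.1 under R 4.3.3 (filterByExpr, TMM factors, quasi-likelihood test, Benjamini-Hochberg adjustment over 17971 genes). A gene was called at an adjusted p under 0.05, and the limit of 1 on the absolute log2 fold change was taken from the study's methods, which used DESeq2. The standard error was the size of the log2 fold change divided by the square root of F. CPM were computed on the TMM-scaled library size. The chi-square per degree of freedom between replicates was 23.6 with DMSO and 8.14 with dBET1, so no library was a copy of another.

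The members and lists were chosen with earlier results of these data known. Named were all members, HLA-G, HLA-H, PSMB8 and PSMB9, all genes of the ER partner, inducible proteasome and regulator lists past both thresholds, and up to 3 genes with the smallest p past both thresholds in each other list; others were named after their values were seen. Some genes are not reported here and were left out of the lists. The lists of granulocytic, erythroid and lymphoid genes served as cell type markers. Alternatives were DESeq2 1.42.0, its size factors, total counts only, other count filters, a replicate block, each library left out, counts divided by 2 and a threshold of 0.01. A fit on identifiers with a GENCODE entry alone was added after the data were seen. The tests were run on simulated data first. Protein sequences were not used here. Figures were drawn with Python 3.11.15 and matplotlib 3.10.9.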

Additional observations from a re-analysis of the deposited data

How the results depend on the processing

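HLA-E and B2M kept a positive and TAP2 a negative log2 fold change under every alternative run, at 1.14 to 1.78, 0.22 to 0.48 and -0.77 to -0.36; TAP1 turned to -0.29 without dBET1 replicate 1. The number of members called higher was 2, and it was 1 with no filter on low counts and 1 at an adjusted p under 0.01; it was 1 to 3 with 1 library left out, and 1 to 2 for a change past the limit of 1. The 1 member called lower was 0 with DESeq2, with total counts only, with no filter on low counts, with at least 10 counts in every sample and at an adjusted p under 0.01, and 0 to 1 with 1 library left out. Of the other pathway genes, 17 were called higher, 11 with no filter on low counts, and 11 to 15 with 1 library left out. Past the limit of 1, 7 were higher, 11 with total counts only, 3 with no filter and 4 to 7 with 1 library left out, while 5 were lower and 2 with total counts only. Of all tested genes, 16.9% were higher and 8.54% were lower past this limit in the main fit. Without the limit, 28.0% were higher and 27.6% lower in the main fit. With no filter on low counts, 3459 of 33380 tested genes were higher and 4350 lower. None of the 34 called pathway genes changed direction under any alternative. Over all tested genes 5038 were higher, and 3356 without dBET1 replicate 2. The causes were not tested, other than that a fit without a library has fewer samples. With the replicate number as a block, TAP2 was at -0.56, HLA-E at 1.48 and B2M at 0.27, and 2 members were higher and 1 lower. Deviations of same-numbered libraries correlated at 0.042 over 11027 genes. With 2 libraries in each group, this value cannot show whether same-numbered libraries were handled together. Summing the alternate haplotype identifiers of each symbol, planned as an alternative, was not run, because the tables used here do not pair those identifiers with symbols. At this depth a count of 0 allows a level of up to about 0.107 CPM, for counting error only.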

Other observations

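The members on chromosome 6 lie in a stretch of 3591510 bases from HLA-F to TAPBP (hg38, 29722775 to 33314284) that holds 146 coding genes. Among the 91 that were tested, 15 were higher after dBET1 and 22 lower (edgeR, adjusted p under 0.05), against 28.0% and 27.6% of all tested genes. This background was not limited to coding genes. The median log2 fold change of the 91 was -0.12. Past the limit of 1, which 16.9% of all tested genes passed upward and 8.54% downward, 5 coding genes were higher: HLA-DMA at 1.85, NEU1 (lysosomal sialidase) at 1.47, HLA-E at 1.46, IER3 (an immediate early gene) at 1.38 and MSH5 (a meiotic mismatch repair homologue) at 1.14. Another 12 were lower, the most reduced being POLR1H, an RNA polymerase I subunit gene, at -2.88, and the tubulin gene TUBB had -1.13. Of the 5 that were higher, HLA-DMA passed the count filter only through its dBET1 libraries, with 2 and 5 counts in the DMSO libraries. The genes of this paragraph other than HLA-E and HLA-DMA were named after their values were seen, and the stretch was chosen after the files were read.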
